A study of Homo sapiens with 6 samples.

Results

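The lysosomal genes described here are 37 genes for lysosomal hydrolases, lysosomal membrane proteins and the proton pump, chosen by symbol from the 19923 genes of the deposited table. All 37 were in the table and all 37 had enough counts to be tested. RNA of BT549, a line of human breast cancer cells, was sequenced in 3 ENL-treated and 3 control libraries. What ENL stands for is not said in the labels, nor are a genotype, dose, duration or vehicle, and ENL serves as a group name. Separate cultures are not mentioned for either group, so p-values measure the spread between these libraries, which may be technical. Levels are estimated counts scaled to library size (CPM) with a factor that trims the most changed genes (TMM), and log2 fold changes are ENL over control with the standard error of the fit.

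Lysosomes break down proteins, sugars, lipids and nucleic acids taken up from outside the cell or delivered by autophagy. Their soluble enzymes, among them the cathepsin proteases and the glycosidases, work at an acid pH that the vacuolar proton ATPase (V-ATPase) maintains, inside a membrane lined by heavily glycosylated proteins such as LAMP1 and LAMP2. Many of the genes carry binding sites for the transcription factors TFEB, TFE3 and MITF in their promoters, and these factors move to the nucleus when the kinase mTORC1 is inactive. Invasive breast cancers are known to secrete some cathepsins, which then cut matrix outside the cell.

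The promoter sequences are shown first because the best known site of those factors, the E-box CACGTG and its extended forms, can be read in them. RefSeq promoter windows of 300 bases (GRCh38.p14), which end 50 bases past an annotated start, were matched by symbol for 23 of the 37 genes. That start need not be the outermost one, and the first windows of CTSH, GM2A and SCARB2 lay inside the gene. CTSB, CTSK, CTSS, HEXA, MANBA, ASAH1, ARSA, PSAP, LAMP2, ATP6V0E1, ATP6V1A, ATP6V1B2, ATP6V1C1 and ATP6V1H had no entry. CACGTG was found for 9 of the 23 genes (39.1%), against 8.77% of all 27305 symbols with a window of the same length. A symbol counted if any of its windows held the motif. TCACGTGA was found for 5 (21.7%, against 1.18% of all symbols), and the longest form, the palindromic CLEAR motif, for 2 (GAA and MCOLN1, 8.7%, against 0.421%). Each of these motifs reads the same on both strands, and each longer one contains the shorter. Of the 9 genes with CACGTG, 3 rose in ENL (NEU1, CTSD and CTSA) and 6 did not pass the test (GAA, MCOLN1, ATP6V0D1, LAMP1, CD63 and CTSF). Of the 14 without it, 3 rose (CTSH, NPC2 and GM2A), 2 fell (CTSC and CTSZ) and 9 did not pass. Of all genes tested, 20.0% rose and 18.4% fell. The counts are small and leave out genes that had no window. Among those, HEXA, MANBA, ASAH1, ARSA, PSAP, LAMP2, ATP6V0E1 and ATP6V1C1 rose and CTSB fell. The 200 bases before the start position of the window are printed for 6 of these genes, 5′ to 3′ on the strand of the gene. Each CACGTG is in capitals. The 6 are genes that rose (NEU1, CTSD, CTSA), genes rich in matches that did not pass (MCOLN1, LAMP1) and the gene that fell most among those that passed (CTSC).
NEU1, chr6:31862822-31863021, minus strand: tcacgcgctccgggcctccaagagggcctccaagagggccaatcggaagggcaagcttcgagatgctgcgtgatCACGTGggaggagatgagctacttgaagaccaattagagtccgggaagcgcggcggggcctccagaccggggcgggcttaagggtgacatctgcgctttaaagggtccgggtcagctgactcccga
CTSD, chr11:1763928-1764127, minus strand: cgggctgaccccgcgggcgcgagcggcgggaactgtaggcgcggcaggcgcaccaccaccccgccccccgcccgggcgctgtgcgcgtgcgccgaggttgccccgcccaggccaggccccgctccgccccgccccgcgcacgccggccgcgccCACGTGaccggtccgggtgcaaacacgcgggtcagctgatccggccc
CTSA, chr20:45891135-45891334, plus strand: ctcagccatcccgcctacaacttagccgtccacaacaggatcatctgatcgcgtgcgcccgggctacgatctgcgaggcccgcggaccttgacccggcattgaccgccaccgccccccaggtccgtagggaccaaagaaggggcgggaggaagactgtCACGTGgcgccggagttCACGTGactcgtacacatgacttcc
MCOLN1, chr19:7522424-7522623, plus strand: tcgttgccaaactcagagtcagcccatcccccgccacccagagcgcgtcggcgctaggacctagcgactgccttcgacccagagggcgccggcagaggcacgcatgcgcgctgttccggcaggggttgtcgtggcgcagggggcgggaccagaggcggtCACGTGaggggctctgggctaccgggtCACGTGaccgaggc
LAMP1, chr13:113297039-113297238, plus strand: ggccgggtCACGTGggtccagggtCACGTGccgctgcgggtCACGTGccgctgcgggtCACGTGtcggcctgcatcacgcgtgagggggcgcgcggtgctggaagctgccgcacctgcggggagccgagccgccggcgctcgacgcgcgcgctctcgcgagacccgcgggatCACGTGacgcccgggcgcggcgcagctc
CTSC, chr11:88337737-88337936, minus strand: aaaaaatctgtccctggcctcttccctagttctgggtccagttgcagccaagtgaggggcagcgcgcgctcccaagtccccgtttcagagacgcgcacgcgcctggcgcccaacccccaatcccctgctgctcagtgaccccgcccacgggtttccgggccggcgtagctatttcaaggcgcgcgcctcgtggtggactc

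A match describes letters in a window and was not tested as a binding site. LAMP1 had 5 matches in the printed stretch and the same level in both groups within the error, while NEU1 had 1 match and the largest rise.

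The 6 libraries held 74457932 to 85310759 units, where 1 sequenced fragment was worth about 4 units. On the second principal component (14.3% of the variance), ENL library 3 scored -55.8, away from ENL libraries 1 and 2 at 22 and 26.3. The labels name epithelial tissue of the mammary gland as the source. Of 8 epithelial markers, EPCAM had too few counts to be tested (at most 17 units in any library), KRT7 and KRT8 rose, KRT5 fell, and CDH1 (at most 29 units), KRT14, KRT18 and KRT19 did not pass. The 7 tested summed to 81.9 to 101 CPM in ENL and 49.7 to 81.7 CPM in control libraries. Of 7 mesenchymal markers, VIM, CDH2, FN1 and TWIST1 rose, SPARC fell, and ZEB1 and ZEB2 did not pass. They summed to 6375 to 7355 CPM in ENL and 3420 to 4144 CPM in control libraries, most of it VIM. Of 8 leukocyte and macrophage markers, AIF1 and TYROBP had too few counts to be tested, and TYROBP was at 0 in all 6 libraries. The 6 others summed to 2.13 to 3.50 CPM in ENL and 10.1 to 14.0 CPM in control libraries, most of it CD14, and PTPRC was at 0 in ENL library 1 and control library 3.

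More of the lysosomal genes rose than fell in ENL-treated cells. In edgeR's quasi-likelihood test across all 14086 genes, at an adjusted p of 0.05 (Benjamini-Hochberg), 14 of the 37 rose (37.8%), against 20.0% of all genes tested. Another 3 fell (8.11%), against 18.4% of all genes tested. The 17 that passed in either direction were 45.9%, against 38.4% of all genes tested. CTSB, CTSC and CTSZ were the 3 that fell, all of them cathepsins. Without control library 3 the number that rose was 9. Every ENL library lay above every control library for 17 of the 37 (45.9%, against 26.4% of all genes tested) and below for 4 (10.8%, against 27.6%). The 2 kinds together, 21 of 37, were close to the 54.0% of all genes tested whose groups did not overlap. The median log2 fold change of the 37 was 0.20, and that of all genes tested was -0.02. Changes were moderate: NEU1 alone passed 2-fold, 8 genes rose by at least 1.5-fold and CTSC alone fell by that much. With libraries scaled by their totals alone, the median of all genes moved to -0.23 and that of the 37 genes to -0.002, with 8 rising and 5 falling. The distance between the medians was 0.23 under that scaling, 0.22 under TMM and 0.18 to 0.27 over all settings tried.

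**Figure D1:**
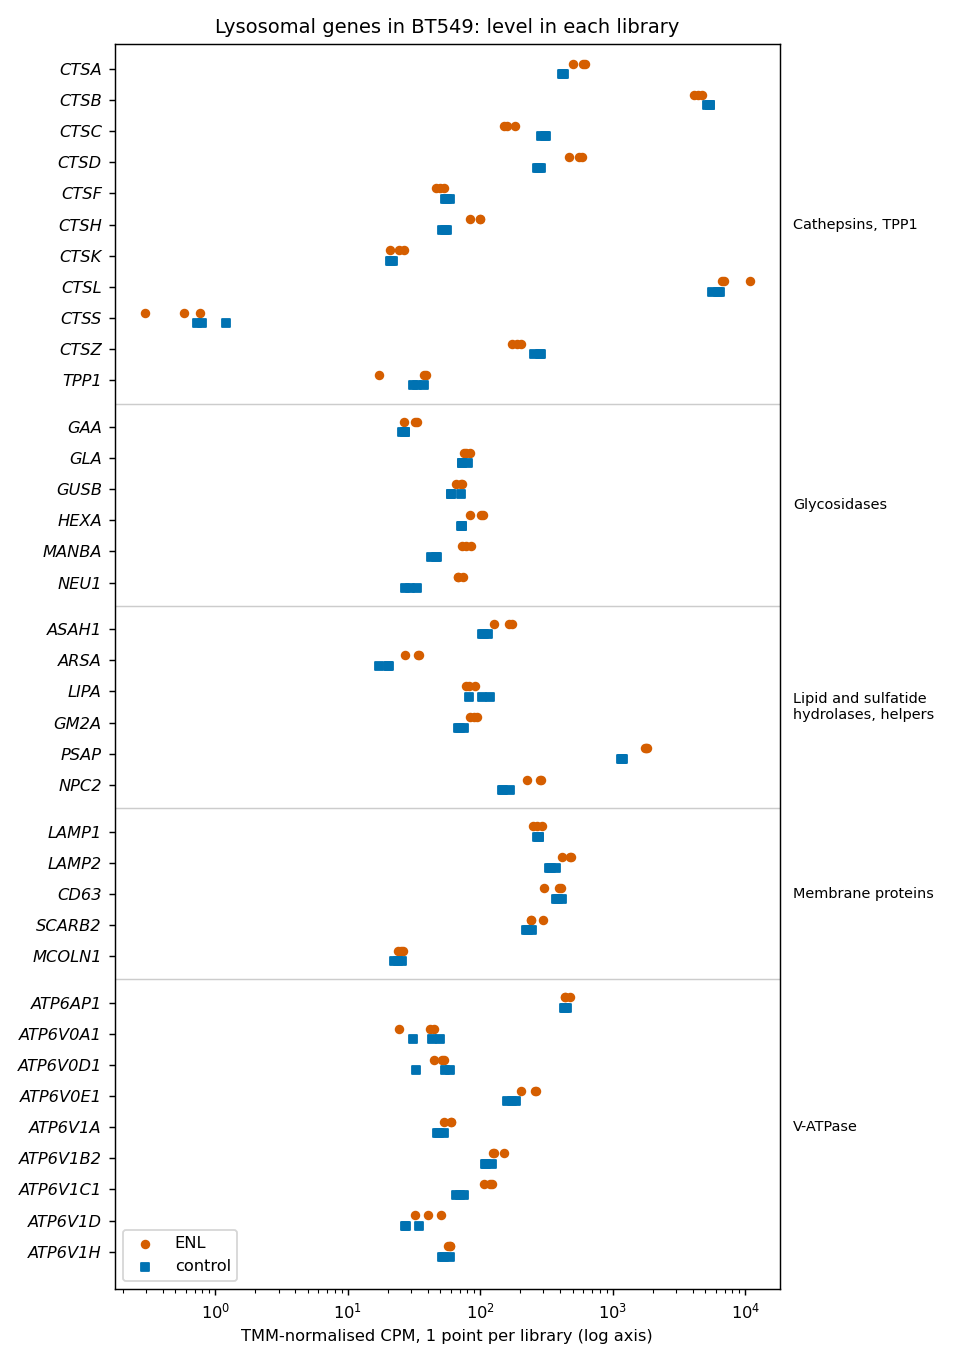
Level of each of the 37 lysosomal genes in every library, as TMM-normalised CPM on a log axis, with ENL libraries as circles above control libraries as squares, grouped by class. CTSL and CTSB are far above the other genes, CTSS lies near 1 CPM, and the circles and squares are clear of each other for 21 of the 37 genes.

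The levels spanned a wide range. Per kilobase of the longest annotated transcript, CTSL averaged 3730 CPM in ENL and 2801 CPM in control libraries, and CTSB 1136 CPM in ENL and 1377 CPM in control libraries. PSAP followed at 621 CPM per kilobase in ENL and 409 in control libraries, and CD63 at 298 in ENL and 317 in control libraries. The lowest was CTSS, at 0.133 CPM per kilobase in ENL and 0.221 in control libraries. CTSL and CTSB together made up 61.1% to 68.2% of the summed CPM of the 37 genes in ENL libraries and 65.3% to 67.8% in control libraries. Summed over all 37 genes, the level was 18407, 22731 and 17609 CPM in ENL libraries 1, 2 and 3 and 16496, 17487 and 17354 CPM in control libraries 1, 2 and 3. The ENL libraries were all above the control libraries, and the distance between ENL library 3 and control library 2 was small. The ratio of mean sums was 1.14, against 1.16 over all genes tested, whose sum was also higher in ENL under TMM. As a percentage of all units, the 37 genes held 1.688, 2.051 and 1.714 in ENL libraries 1, 2 and 3. In control libraries 1, 2 and 3 they held 1.782, 1.855 and 1.877. Without CTSL and CTSB, the other 35 genes summed to 6853 to 7224 CPM in ENL and 5630 to 5718 CPM in control libraries. Their ratio of means was 1.24, against 1.16 over all genes tested.

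**Figure D2:**
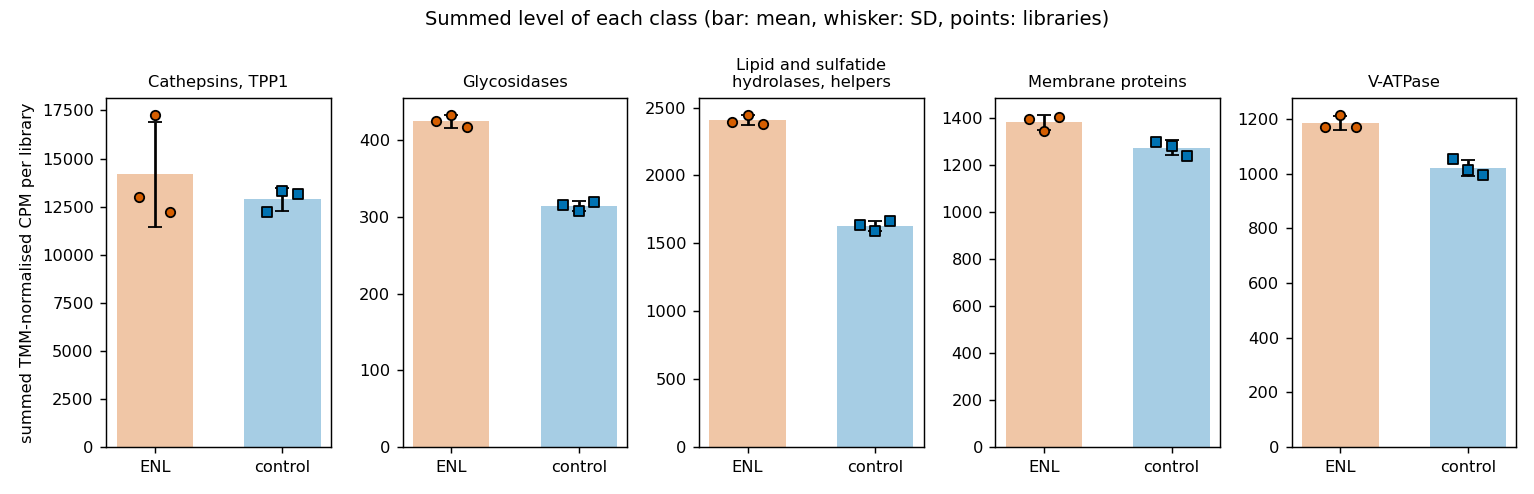
Summed TMM-normalised CPM of the genes of each class, with 1 point per library, bars at the mean and whiskers at the SD of the 3 libraries of a group; each panel has its own axis, which starts at 0. ENL and control sums are clear of each other in every class except the cathepsins with TPP1, and the cathepsin sum of ENL library 2 stands above all other libraries. The ratio of mean sums, ENL over control, is 1.10, 1.35, 1.48, 1.09 and 1.16 for cathepsins with TPP1, glycosidases, lipid and sulfatide hydrolases with helpers, membrane proteins and V-ATPase. Over all genes tested it is 1.16.

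The cathepsins and the peptidase gene TPP1 moved in both directions. Of these 11 genes, 3 rose (CTSA, CTSD and CTSH), 3 fell (CTSB, CTSC and CTSZ) and 5 did not pass. The shares that rose and fell were both 27.3%, against 20.0% and 18.4% of all genes tested. The median log2 fold change of the 11 genes was -0.12, and it was 0.09 without ENL library 2, so its sign rested on that library. Among the 8 cysteine cathepsins, 1 rose (CTSH, 12.5%) and 3 fell (37.5%), on few genes. The aspartic protease gene CTSD and the serine carboxypeptidase gene CTSA rose, and TPP1, a serine peptidase gene, did not pass.

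CTSD encodes cathepsin D, the main aspartic protease of lysosomes, and had the largest rise of the class. Its gene lies on chromosome 11 (1752752 to 1764573, minus strand; all gene positions are those of whole genes in GENCODE 29, GRCh38). CTSD had 558, 581 and 465 CPM in ENL libraries 1, 2 and 3, against 287, 267 and 279 CPM in control libraries 1, 2 and 3. The groups were far apart, and ENL library 3 was the lowest of its group. The log2 fold change was 0.94 ± 0.10 (SE, n = 3 per group), with an adjusted p of 0.000701 in edgeR's test. CTSD shares 1304 exon bases on its strand with the annotated gene AC068580.4, and summed with it the log2 fold change was 0.92.

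CTSH (chromosome 15, 78921058 to 78949574, minus strand) encodes cathepsin H, an aminopeptidase. It had 100.2, 100.3 and 83.2 CPM in ENL libraries 1, 2 and 3, against 51.5, 54.5 and 55.8 CPM in control libraries. No ENL library came near the control range. The log2 fold change was 0.81 ± 0.10 (edgeR adjusted p = 0.00120). CTSA encodes cathepsin A, the carboxypeptidase that also holds the sialidase NEU1 and beta-galactosidase in a stable complex. It averaged 569.8 ± 61.4 CPM in ENL and 422 ± 10.4 CPM in control libraries (SD, n = 3), a log2 fold change of 0.43 ± 0.10 (edgeR adjusted p = 0.0122). Exons of NEURL2 and PLTP on the opposite strand overlap CTSA, and the sum of the 3 genes also had a log2 fold change of 0.43. CTSA did not pass with library totals alone (0.22, adjusted p = 0.0530).

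CTSC (chromosome 11, 88293592 to 88337787, minus strand) encodes cathepsin C, also called dipeptidyl peptidase 1, which activates the serine proteases of immune cells. It had 160.1, 184 and 151 CPM in ENL libraries 1, 2 and 3, against 305, 285 and 311 CPM in control libraries. All ENL libraries were well below the control range. The log2 fold change was -0.86 ± 0.09 (edgeR adjusted p = 0.000761). CTSZ (chromosome 20, 58995185 to 59007247, minus strand), the gene of the carboxypeptidase cathepsin Z, had 189, 203 and 173 CPM in ENL libraries, against 257, 288 and 283 CPM in control libraries. The groups did not overlap and the log2 fold change was -0.55 ± 0.09 (edgeR adjusted p = 0.00348). CTSC and CTSZ fell in libraries in which the summed leukocyte markers were also lower, and the part of other cells in this was not tested.

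CTSB (chromosome 8, 11842524 to 11869448, minus strand) encodes cathepsin B, an abundant cysteine protease with both endopeptidase and peptidyl-dipeptidase action. It had 4415, 4691 and 4106 CPM in ENL libraries 1, 2 and 3, against 5175, 5392 and 5438 CPM in control libraries. The groups did not overlap, but the fall was small, with a log2 fold change of -0.28 ± 0.09 (edgeR adjusted p = 0.0422). The call was lost without ENL library 1 (adjusted p = 0.112) and without control library 1 (0.0965), 2 (0.128) or 3 (0.143).

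CTSL (chromosome 9, 87725519 to 87731393, plus strand) encodes cathepsin L, an endopeptidase, and was the most abundant of the 37 genes. It had 6891, 10816 and 6651 CPM in ENL libraries 1, 2 and 3, against 5602, 6465 and 6227 CPM in control libraries. ENL library 2 was far above all others, and ENL libraries 1 and 3 were just above the control range. The log2 fold change of 0.41 ± 0.20 did not pass (edgeR adjusted p = 0.141). GENCODE names 6 pseudogenes after CTSL, which could share reads with it. Set against CTSB in the same library and per kilobase, the level of CTSL was 2.78, 4.10 and 2.88 times that of CTSB in ENL libraries and 1.93, 2.13 and 2.04 times in control libraries. That these ratios did not overlap between the groups follows from the values above and is no further result. In every ENL library CTSL lay above and CTSB below the control range. An exact permutation test of 3 against 3 libraries cannot go below p = 0.1, so none was run.

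TPP1, whose product removes tripeptides from the ends of proteins, was low in the library in which CTSL was high. It had 37.6, 17.1 and 39.0 CPM in ENL libraries 1, 2 and 3, against 31.0, 33.3 and 37.5 CPM in control libraries. Only ENL library 2 was low, and the log2 fold change of -0.12 ± 0.31 did not pass (edgeR adjusted p = 0.789). CTSF and CTSK, genes of the cysteine proteases cathepsin F and cathepsin K (the bone-resorbing enzyme of osteoclasts), had log2 fold changes of -0.17 ± 0.09 and 0.16 ± 0.11 (adjusted p = 0.167 and 0.296). CTSS, the cathepsin of antigen-presenting cells, had 20 to 52 units in ENL and 64 to 97 units in control libraries. At that depth its log2 fold change of -0.74 ± 0.45 was not distinguishable from 0 (edgeR adjusted p = 0.239).

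**Figure D3:**
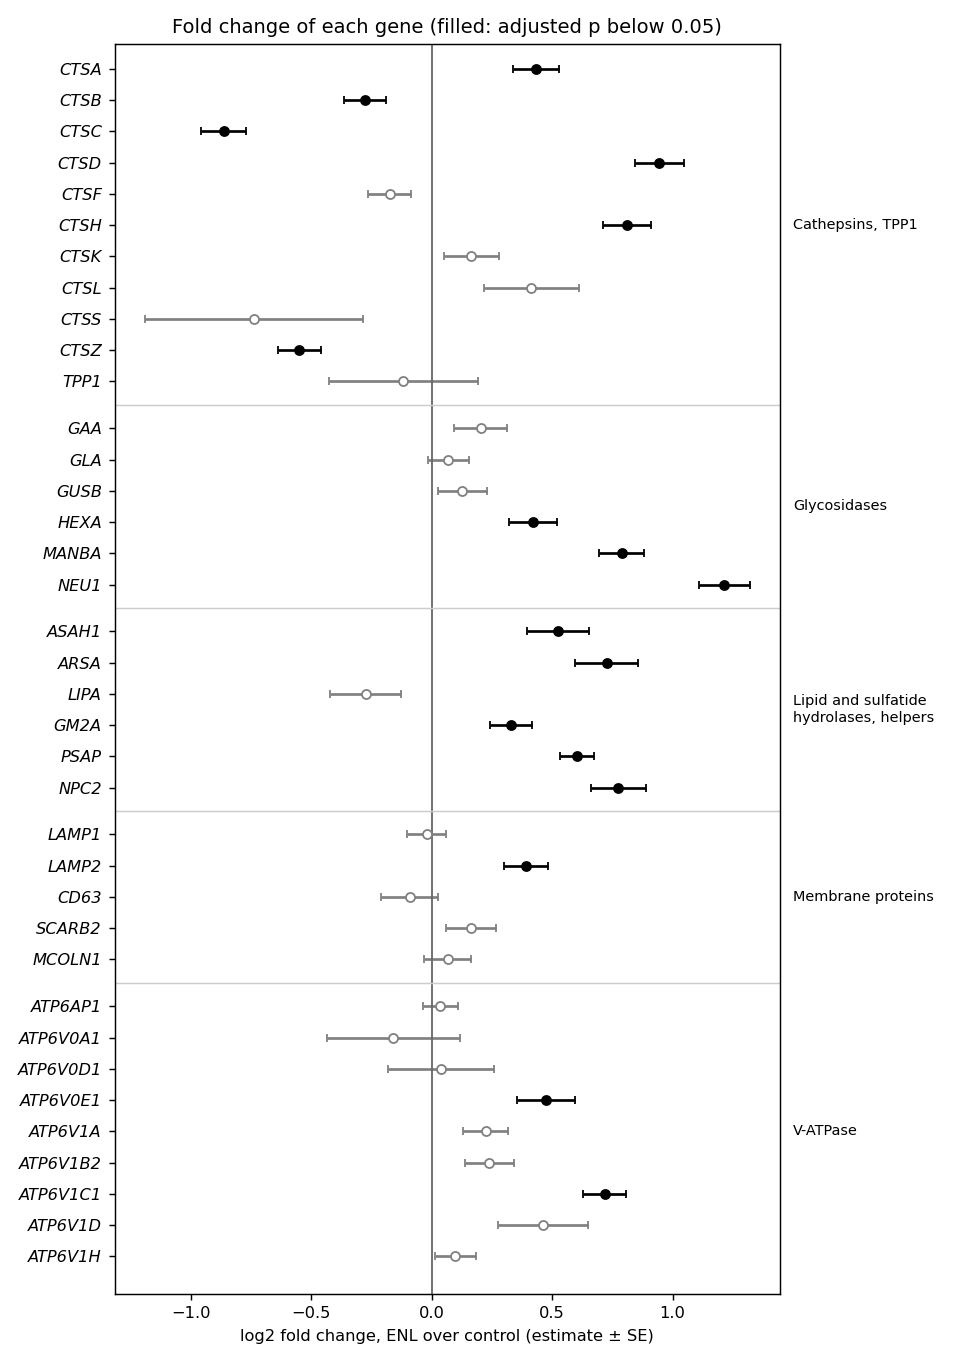
Log2 fold change of each gene, ENL over control, with its SE from the fit, on 3 libraries per group; filled points passed an adjusted p of 0.05 in edgeR's test. The cathepsins lie on both sides of 0, whereas the filled points of the other 4 classes all lie to the right.

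Glycosidase genes, whose enzymes remove sugars from glycoproteins, glycolipids and glycogen, leaned towards higher levels. Of 6 genes, 3 rose (NEU1, MANBA and HEXA), none fell and 3 did not pass (GAA, GLA and GUSB). The median log2 fold change was 0.31. Their summed level was 425 ± 8.37 CPM in ENL and 314 ± 6.09 CPM in control libraries (SD, n = 3).

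NEU1 (chromosome 6, 31857659 to 31862906, minus strand) encodes the lysosomal sialidase, which removes terminal sialic acids and also acts on LAMP1. It had 67.5, 68.0 and 73.9 CPM in ENL libraries 1, 2 and 3, against 27.1, 33.6 and 29.6 CPM in control libraries. The lowest ENL library was above the highest control library by a wide margin. The rise of 1.21 ± 0.11 on the log2 scale was the largest of the 37 (edgeR adjusted p = 0.000309). MANBA (chromosome 4, 102630770 to 102760994, minus strand), the beta-mannosidase gene, had 73.0, 77.8 and 84.5 CPM in ENL libraries, against 47.3, 42.4 and 46.5 CPM in control libraries. The groups were again clear of each other, with a log2 fold change of 0.79 ± 0.09 (edgeR adjusted p = 0.00101).

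HEXA (chromosome 15, 72340919 to 72376476, minus strand) encodes the alpha subunit of beta-hexosaminidase, which degrades the ganglioside GM2, and had the highest CPM of the class averaged over all 6 libraries. Per kilobase GLA was higher, at 55.8 CPM in ENL and 53.2 CPM in control libraries, against 18.4 CPM in ENL and 13.8 CPM in control libraries for HEXA. It had 101, 105 and 84.4 CPM in ENL libraries, against 72.7, 71.4 and 73.1 CPM in control libraries, and the groups did not overlap. The log2 fold change was 0.42 ± 0.10 (edgeR adjusted p = 0.0154). The call was lost, narrowly, without ENL library 1 (adjusted p = 0.0511) and without control library 1 (0.0520), 2 (0.0560) or 3 (0.0512), and with library totals alone (0.21, adjusted p = 0.0875). GAA, the acid glucosidase gene that clears glycogen, had a log2 fold change of 0.20 ± 0.11, GUSB, the beta-glucuronidase gene, of 0.13 ± 0.10 and GLA, the alpha-galactosidase A gene, of 0.07 ± 0.09. Their adjusted p-values in edgeR's test were 0.189, 0.351 and 0.557. GENCODE names 11 pseudogenes after GUSB, which could share its reads.

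The genes for lipid and sulfatide hydrolases and their helper proteins moved most as a group. Of 6 genes, 5 rose (ASAH1, ARSA, GM2A, PSAP and NPC2), none fell and LIPA did not pass. The share that rose was 83.3%, against 20.0% of all genes tested, on few genes. The median log2 fold change was 0.56, the highest of the 5 classes. The summed level was 2409 ± 35.3 CPM in ENL and 1629 ± 35.7 CPM in control libraries (SD, n = 3), most of it from PSAP. That ratio of mean sums was 1.48, against 1.16 over all genes tested.

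PSAP (chromosome 10, 71816298 to 71851375, minus strand) encodes prosaposin, the precursor of the saposins that present sphingolipids to their hydrolases. It had 1740.1, 1826 and 1788 CPM in ENL libraries 1, 2 and 3, against 1158, 1172 and 1197 CPM in control libraries. Replicates lay close together and the groups far apart, with a log2 fold change of 0.60 ± 0.07 (edgeR adjusted p = 0.00104). NPC2 (chromosome 14, 74476192 to 74494177, minus strand), whose product carries cholesterol inside the lysosome to the membrane protein NPC1, had 280.0, 285 and 227 CPM in ENL libraries, against 145, 149 and 169 CPM in control libraries. Every ENL library exceeded every control library, and the log2 fold change was 0.77 ± 0.11 (edgeR adjusted p = 0.00241). Summed with ISCA2, which overlaps it on the opposite strand, NPC2 also had a log2 fold change of 0.77.

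ARSA (chromosome 22, 50622754 to 50628173, minus strand) encodes arylsulfatase A, which removes the sulfate of sulfatide. It had 34.4, 33.8 and 27.2 CPM in ENL libraries 1, 2 and 3, against 20.4, 20.0 and 17.2 CPM in control libraries. The groups did not overlap and the log2 fold change was 0.73 ± 0.13 (edgeR adjusted p = 0.00534). ASAH1 (chromosome 8, 18055992 to 18084998, minus strand), the acid ceramidase gene, had 174, 127 and 164 CPM in ENL libraries, against 114, 103 and 106 CPM in control libraries. ENL library 2 was close to the control range. The log2 fold change was 0.53 ± 0.13 (edgeR adjusted p = 0.0170), and the call was lost without ENL library 1 (adjusted p = 0.0518) or control library 2 (0.0598) or 3 (0.0564), and with library totals alone (0.32, adjusted p = 0.111). GM2A, the gene of the GM2 activator protein that works with HEXA, rose by 0.33 ± 0.09 (edgeR adjusted p = 0.0233). Its call was lost without ENL library 1 (adjusted p = 0.0643) or 2 (0.0611) or control library 2 (0.0903) or 3 (0.0771), with upper-quartile scaling (0.24, adjusted p = 0.0705) and with library totals alone (0.12, adjusted p = 0.281). GENCODE names 2 pseudogenes after GM2A. LIPA, the acid lipase gene that frees cholesterol from lipoprotein esters, had 77.5 to 91.9 CPM in ENL and 81.6 to 119 CPM in control libraries, and its log2 fold change of -0.27 ± 0.15 did not pass (edgeR adjusted p = 0.185).

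The lysosomal membrane protein genes differed little between the groups. Of 5 genes, LAMP2 alone rose (20.0%, the same share as of all genes tested) and none fell. The median log2 fold change was 0.07, and it lay between 0.02 and 0.12 when single libraries were left out, lowest without control library 1 and highest without control library 2. LAMP2 (chromosome X, 120427827 to 120469365, minus strand), a lining protein whose A isoform takes part in chaperone-mediated autophagy, had 475, 414 and 484 CPM in ENL libraries, against 373, 342 and 333 CPM in control libraries. The groups did not overlap and the log2 fold change was 0.39 ± 0.09 (edgeR adjusted p = 0.0148), which did not pass without control library 2 (adjusted p = 0.0575) or 3 (0.0634) or with library totals alone (0.19, adjusted p = 0.190). LAMP1, the other main lining protein, had 251 to 294 CPM in ENL and 270 to 278 CPM in control libraries, with a log2 fold change of -0.02 ± 0.08 (edgeR adjusted p = 0.855).

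The tetraspanin gene CD63 had 304 to 405 CPM in ENL and 375 to 412 CPM in control libraries. SCARB2, the gene of the receptor that carries glucocerebrosidase to the lysosome, had 241 to 296 CPM in ENL and 222 to 246 CPM in control libraries. MCOLN1, the gene of the calcium channel TRPML1, had 23.9 to 26.3 CPM in ENL and 22.5 to 25.5 CPM in control libraries. In all 3 genes the groups overlapped, and the adjusted p-values in edgeR's test were 0.577, 0.248 and 0.618. In a fit that corrected for length and GC content of the transcripts, CD63 fell (log2 fold change -0.26, adjusted p = 0.0135) and SCARB2 rose (0.22, adjusted p = 0.0151). CD63 also passed as lower with library totals alone (-0.30, adjusted p = 0.0449), where the median of all genes was -0.23.

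V-ATPase genes encode the pump that acidifies the lysosome, in which the V1 sector splits ATP in the cytosol and the V0 sector moves protons through the membrane. Of 9 genes, 2 rose (ATP6V1C1 and ATP6V0E1), none fell and 7 did not pass, and the share that rose, 22.2%, was close to the 20.0% of all genes tested. The median log2 fold change was 0.22, with 8 of the 9 values above 0. With library totals alone it was 0.019, with 5 of the 9 values above 0. With overlapping genes summed it was 0.098, where ATP6V1D, summed with EIF2S1, was the only gene of the class that had been summed. The summed level was 1186 ± 26.0 CPM in ENL and 1021 ± 29.7 CPM in control libraries (SD, n = 3). That ratio of 1.16 was the same as the 1.16 for the sum over all genes tested. The 5 V1 genes summed to 386 to 441 CPM in ENL and 301 to 344 CPM in control libraries. The 3 V0 genes with the accessory subunit gene ATP6AP1 summed to 730 to 831 CPM in ENL and 687 to 714 CPM in control libraries.

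ATP6V1C1 (chromosome 8, 103021063 to 103073051, plus strand) encodes subunit C, which links V1 to V0 and is released when the pump comes apart. It had 118, 107 and 122 CPM in ENL libraries 1, 2 and 3, against 75.2, 65.5 and 70.6 CPM in control libraries. The groups were well separated and the log2 fold change was 0.72 ± 0.09 (edgeR adjusted p = 0.00125). ATP6V0E1, the gene of the small V0 subunit e, had 262, 259 and 201 CPM in ENL libraries, against 174, 185 and 160.4 CPM in control libraries, with a log2 fold change of 0.47 ± 0.12 (edgeR adjusted p = 0.0202). The ATP6V0E1 call was lost without ENL library 1 (adjusted p = 0.0633) or 2 (0.0592) or control library 1 (0.0619) or 3 (0.0730), and with library totals alone (0.26, adjusted p = 0.0756). GENCODE names 4 pseudogenes after ATP6V0E1. ATP6AP1, with the highest mean CPM of the class, had 437, 478 and 439 CPM in ENL libraries, against 431, 439 and 451 CPM in control libraries, and the groups overlapped (log2 fold change 0.04 ± 0.07, edgeR adjusted p = 0.727).

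ATP6V1A, the gene of the catalytic subunit A, and ATP6V1B2, a gene of the nucleotide-binding subunit B, had log2 fold changes of 0.22 ± 0.09 and 0.24 ± 0.10. Every ENL library was above every control library in both genes, although neither passed (edgeR adjusted p = 0.0970 and 0.107). ATP6V1A passed in the fit that corrected for length and GC content (0.27, adjusted p = 0.0139). For ATP6V1H, the gene of a regulatory V1 subunit, the log2 fold change was 0.10 ± 0.08 (edgeR adjusted p = 0.388). ATP6V1D, the gene of the rotor shaft subunit, had one of 0.46 ± 0.18 (adjusted p = 0.0897), which passed without ENL library 1 (0.61, adjusted p = 0.0349). Summed with EIF2S1, whose exons overlap ATP6V1D on the opposite strand, it came to 0.05. ATP6V0A1 and ATP6V0D1, genes of V0 subunits, varied most of the 9 genes between libraries of 1 group. ATP6V0A1 had 24.2 to 45.1 CPM in ENL and 30.9 to 49.7 CPM in control libraries, and ATP6V0D1 had 44.6 to 53.5 CPM in ENL and 32.6 to 58.7 CPM in control libraries.

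**Figure D4:**
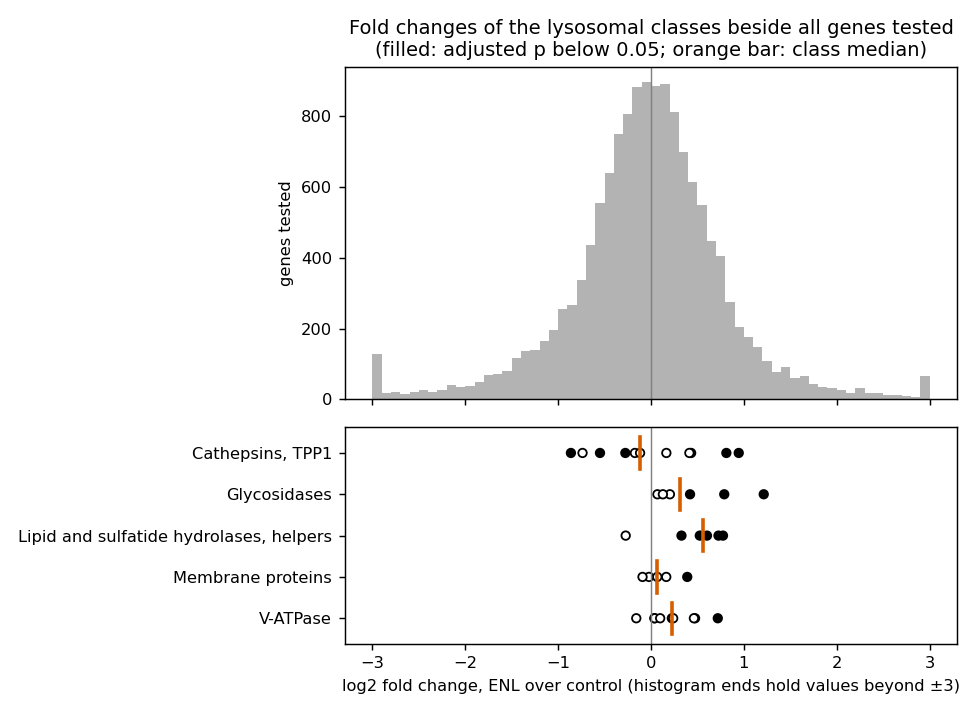
Upper panel, number of genes tested by log2 fold change, ENL over control, with values beyond 3 in the end bins; lower panel, the 37 lysosomal genes by class, filled where the adjusted p was below 0.05, with an orange bar at the class median. The median is 0.56 for lipid and sulfatide hydrolases and their helpers, 0.31 for glycosidases, 0.22 for V-ATPase, 0.07 for membrane proteins and -0.12 for cathepsins.

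Set side by side, 11 of the 23 soluble hydrolase and helper genes rose (47.8%) and 3 fell (13.0%). Of the 14 membrane protein and V-ATPase genes, 3 rose (21.4%) and none fell. Of all genes tested, 20.0% rose and 18.4% fell, so the share of these 14 genes that rose was close to that of all genes. The difference between these classes was not tested, and each class held few genes. The position of ENL library 3 also differed between them. It was the lowest of the 3 ENL libraries for 15 of the 23 soluble hydrolase and helper genes and the highest for 4. Among the 14 membrane protein and V-ATPase genes it was the lowest for 4 and the highest for 7. Of all 14086 genes tested, it was the lowest for 5389 and the highest for 5441. Over all 37 genes, the median length of the longest transcript was 2123 bases where ENL library 3 was lowest and 3578 bases where it was highest. Over all genes tested the corresponding lengths were 2315 and 4592 bases. In the fit that corrected for length and GC content together, all 17 calls were kept, and 5 of the 37 genes were lower. The median log2 fold change in that fit was 0.50 for lipid and sulfatide hydrolases with helpers and -0.05 for membrane proteins. The part of transcript length alone in the class values was not tested.

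Other lysosomal genes were taken from lists of the same pathway. Of 31 other hydrolase genes tested, 5 rose and 8 fell, with a median log2 fold change of -0.11. The 13 called were 41.9%, near the 38.4% of all genes tested. IDUA, the alpha-iduronidase gene of heparan and dermatan sulfate breakdown, had 20.7, 23.3 and 19.1 CPM in ENL libraries, against 6.17, 6.76 and 5.66 CPM in control libraries. All ENL libraries lay far above the control range. IDUA rose by 1.76 ± 0.13 on the log2 scale, the peptidase gene DPP7 by 0.76 ± 0.12 and the heparan sulfate hydrolase gene NAGLU by 0.45 ± 0.09 (edgeR adjusted p = 0.000182, 0.00311 and 0.00839). NAGLU did not pass with library totals alone (0.24, adjusted p = 0.0651). IDUA exons are overlapped by SLC26A1 on the opposite strand and NAAA exons by SDAD1 on the same strand, which leaves both values uncertain. ARSB (arylsulfatase B), HYAL1 (hyaluronidase 1) and NAAA (an acid amidase) had log2 fold changes of -1.05 ± 0.13, -1.13 ± 0.16 and -1.96 ± 0.34 (edgeR adjusted p = 0.00136, 0.00233 and 0.00444).

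Of 20 other lysosomal membrane protein genes, 5 rose and 2 fell, and the 35.0% called was near the 38.4% of all genes tested. LAPTM4A, a gene of a lysosomal transmembrane protein, rose by 0.94 ± 0.08 on the log2 scale, NPC1, the cholesterol exporter gene, by 0.86 ± 0.12 and SLC17A5, the sialic acid exporter gene, by 0.79 ± 0.12. Their adjusted p-values were 0.000251, 0.00166 and 0.00314 in edgeR's test, and RMC1 overlaps NPC1 on the opposite strand. SLC38A9, the gene of an arginine-sensing transporter, and LAPTM4B had log2 fold changes of -0.78 ± 0.13 and -0.32 ± 0.07 (edgeR adjusted p = 0.00353 and 0.0137). LAPTM4B did not pass without control library 1 (adjusted p = 0.0557).

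Of 13 other V-ATPase genes tested, 3 rose and 3 fell, so that 46.2% were called, against 38.4% of all genes tested. ATP6V1G1, the gene of the widespread form of subunit G, had 250.4, 224 and 211 CPM in ENL libraries, against 112, 104 and 101 CPM in control libraries. Its groups did not overlap, and its log2 fold change of 1.11 ± 0.09 (edgeR adjusted p = 0.000250) exceeded that of any of the 9 V-ATPase genes above. The kidney form gene ATP6V1B1 (1.99 ± 0.44) and ATP6V1F (0.49 ± 0.14) also rose, the first at a low level of 2.26 CPM in ENL and 0.568 CPM in control libraries. Exons of other genes overlap ATP6V1B1 (VAX2), ATP6V1F (KCP) and ATP6V1E2 (RHOQ), and their values are uncertain to that extent. ATP6V0A2 had a log2 fold change of -0.56 ± 0.10, the accessory subunit gene ATP6AP2 of -1.24 ± 0.32 and ATP6V1E2, an isoform gene of subunit E, of -0.80 ± 0.25. The adjusted p-values of these 5 genes, in the order named, were 0.0119, 0.0317, 0.00475, 0.0256 and 0.0440. Calls were lost without ENL library 1 for ATP6V1F (adjusted p = 0.0855), ATP6AP2 (0.0748) and ATP6V1E2 (0.0921). Without ENL library 2 they were lost for ATP6V1F (0.0867) and ATP6AP2 (0.0839), and without ENL library 3 for ATP6V1E2 (0.0582). Without control library 1 they were lost for ATP6V1F (0.103), ATP6AP2 (0.0545) and ATP6V1E2 (0.0938), without control library 2 for ATP6V1E2 (0.106), and without control library 3 for ATP6V1F (0.101), ATP6AP2 (0.0675) and ATP6V1E2 (0.110). ATP6V1F also did not pass with upper-quartile scaling (0.40, adjusted p = 0.0640) or library totals alone (0.28, adjusted p = 0.108).

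Genes for the delivery of hydrolases through mannose 6-phosphate tags and sorting receptors mostly did not pass. Of 9 genes, none rose and 1 fell (11.1% called, against 38.4% of all genes tested). SORT1, the gene of sortilin, which sorts prosaposin and other lysosomal proteins, had 8.21, 8.10 and 8.69 CPM in ENL libraries, against 21.8, 21.2 and 20.6 CPM in control libraries. The groups were far apart, with a log2 fold change of -1.35 ± 0.10 (edgeR adjusted p = 0.000186).

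Of 7 genes tested from a list of cystatin and serpin genes, 2 rose and 3 fell, 71.4% against 38.4% of all genes tested, on few genes. The list was drawn up for cathepsin inhibitors, but whether each product, such as that of SERPINB9, inhibits cathepsins was not tested. CSTB, the gene of cystatin B, an inhibitor of cysteine cathepsins in the cytosol, had 1001, 1141 and 848 CPM in ENL libraries, against 272, 283 and 272 CPM in control libraries. Even the lowest ENL library was above the control range by a wide margin, and the log2 fold change was 1.85 ± 0.12 (edgeR adjusted p = 9e-05). CST3, the gene of the secreted cystatin C, rose by 0.46 ± 0.11 (edgeR adjusted p = 0.0160), a call lost without control library 1 (adjusted p = 0.0619) or 3 (0.0582) and with library totals alone (0.25, adjusted p = 0.0653). The serpin genes SERPINB3, SERPINB4 and SERPINB9 had at most 0.791 CPM in any ENL library. Their log2 fold changes were -3.01 ± 0.36, -4.76 ± 0.87 and -2.29 ± 0.66 (edgeR adjusted p = 0.00107, 0.00733 and 0.0322). SERPINB9 did not pass without any 1 of ENL libraries 1 (adjusted p = 0.0682), 2 (0.0876) and 3 (0.0623) or control libraries 1 (0.0702) and 2 (0.146).

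The genes of the MiT factors and of the complexes that control them at the lysosome rose in 9 of 15 cases (60.0%, against 20.0% of all genes tested) and fell in 1. TFEB had 14.0, 13.5 and 12.0 CPM in ENL libraries, against 4.62, 5.11 and 3.78 CPM in control libraries, a log2 fold change of 1.55 ± 0.16 (edgeR adjusted p = 0.000573). TFE3 had 202, 205 and 206 CPM in ENL libraries, against 102, 110.1 and 114 CPM in control libraries, a log2 fold change of 0.91 ± 0.07 (adjusted p = 0.000236). TFEB and TFE3 were clear of the control range in all ENL libraries, and per kilobase TFE3 was the more abundant, at 59.9 CPM in ENL and 31.8 CPM in control libraries, against 5.07 CPM in ENL and 1.73 CPM in control libraries for TFEB. MITF rose by 0.67 ± 0.20 (edgeR adjusted p = 0.0327), which did not pass without ENL library 2 (0.0666) or 3 (0.0722) or control library 1 (0.108) or 2 (0.104), with upper-quartile scaling (0.59, adjusted p just above the threshold) or with library totals alone (0.47, adjusted p = 0.116).

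Among the Rag GTPase genes, whose products hold mTORC1 at the lysosome, RRAGC rose by 0.96 ± 0.10 on the log2 scale and RRAGA had a log2 fold change of -0.32 ± 0.07 (edgeR adjusted p = 0.000580 and 0.0121). RRAGD, chosen after its values were seen, had 7.67, 7.69 and 7.74 CPM in ENL libraries, against 0.972, 0.346 and 0.576 CPM in control libraries. This was a 12.1-fold difference on a low level (log2 fold change 3.60 ± 0.37, edgeR adjusted p = 0.000589). FLCN and FNIP1, genes of a complex that acts on RagC and RagD, were also chosen after their values were seen and rose by 0.80 ± 0.09 and 0.74 ± 0.12 (edgeR adjusted p = 0.000716 and 0.00326). Both share exon bases on their strand with other annotated genes, so their values are uncertain.

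**Figure D5:**
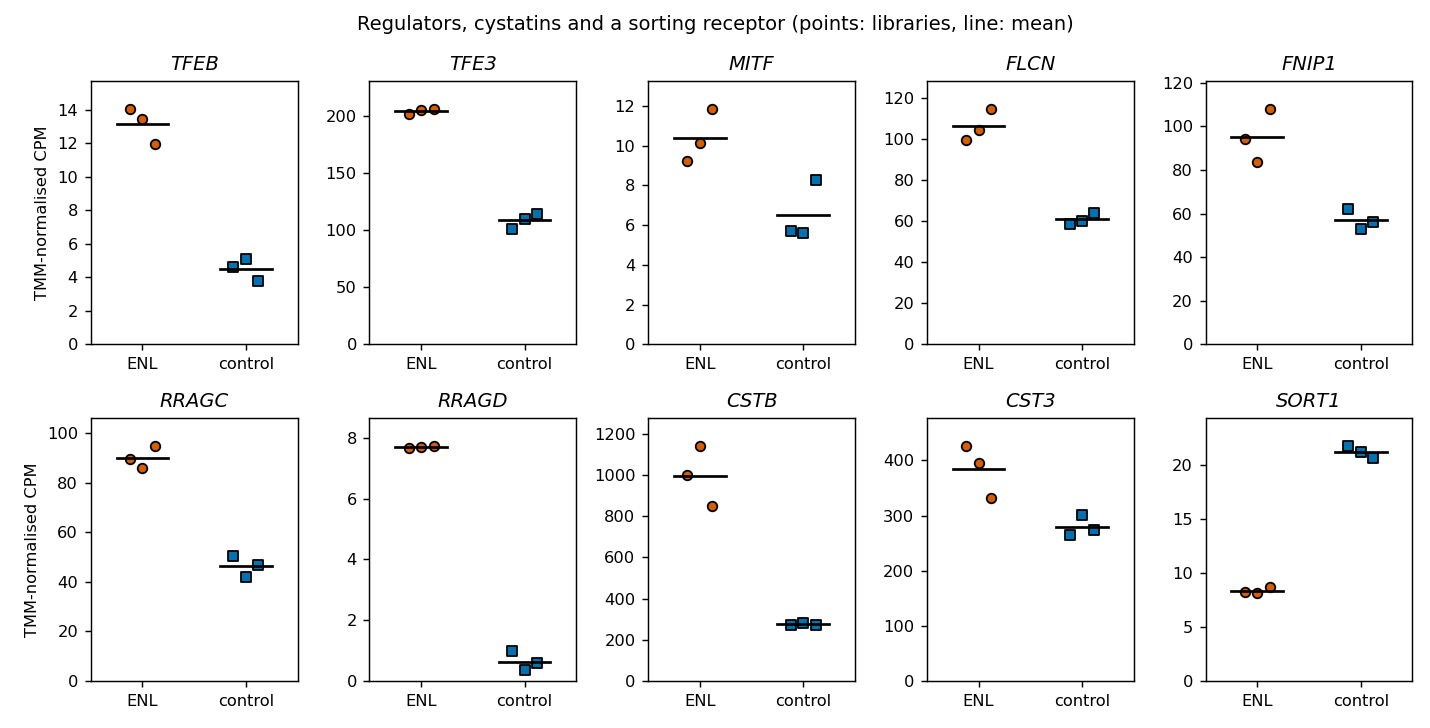
TMM-normalised CPM in every library for the MiT factor genes TFEB, TFE3 and MITF, for FLCN, FNIP1, RRAGC and RRAGD, for the cystatin genes CSTB and CST3 and for SORT1, ENL on the left of control, with a line at the mean of 3 libraries and axes that start at 0. All genes but SORT1 are higher in ENL, and ENL libraries do not overlap control libraries in any panel. Only genes that passed the test are shown, some of them chosen after their values were seen, so this separation is no further result. Of all genes tested, 54.0% had groups that did not overlap. RRAGA, SERPINB3, SERPINB4 and SERPINB9, which fell, are not shown.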

How the data were processed

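The deposited table holds an estimated count per gene and library. The authors' values are whole numbers, of which 70.8% to 73.1% between 4 and 43 were multiples of 4 or 1 more than one. FastQC, STAR, StringTie, DESeq2 and hg38 appear without versions in the submitters' processing notes. Which annotation, strand setting and mRNA selection were used is not given in the sources.

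Genes passed edgeR's filterByExpr (minimum count 10), were scaled by TMM and tested by glmQLFit (robust) and glmQLFTest with the group alone, ENL over control, with Benjamini-Hochberg adjustment over all genes (R 4.3.3, edgeR 4.0.16, limma 3.58.1, DESeq2 1.42.0). The procedure was tested on simulated data. Replicate pairs differed by more than sampling noise (chi-square per degree of freedom 21.2 to 54.8). Symbols of 19815 genes (99.5%) were matched to GENCODE 29. Standard errors come from the fit to 3 libraries per group, in which the spread of each gene is drawn towards that of the other genes tested.

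The genes, lists and tests were chosen with earlier results of these data known. Values per library are given for genes that passed with an absolute log2 fold change of at least 0.5 and for the most abundant of each class, and from the other lists up to 3 genes per direction are named, with TFEB, TFE3 and MITF. Some further genes are described by their values. Other scalings, tests, filters, a replicate block, left-out libraries, counts divided by 4 and a length and GC correction were tried. Sums with genes sharing at least 100 exon bases, and leaving out ENL library 3 with control library 1, were added after seeing the data.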

Additional observations from a re-analysis of the deposited data

How the results depend on the processing

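Each of the 37 fold changes was recomputed under up to 20 other settings. Of 739 such values, 670 kept direction and side of the threshold, 38 lost a call, 7 gained one and 24 changed sign, in 13 genes of which none was called. Of the 17 called genes, 10 were called under every setting, and 6 lost the call without 1 library. With library totals alone CTSA (adjusted p = 0.0530), HEXA (0.0875), ASAH1 (0.111), GM2A (0.281), LAMP2 (0.190) and ATP6V0E1 (0.0756) lost their calls, and these 6 genes and CTSB did so in glmTreat against a 1.2-fold change. CTSF passed as lower with library totals alone (0.00957) and after correction for length and GC content (0.00405), and so did CD63 (0.0449 and 0.0135).

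Library totals alone gave 8 of the 37 genes higher and 5 lower, and 1804 higher and 3996 lower of all genes. The median log2 fold change was then -0.0022 for the 37 genes, -0.31 for cathepsins and TPP1, 0.10 for glycosidases, 0.36 for lipid and sulfatide hydrolases, -0.14 for membrane proteins, 0.019 for V-ATPase and -0.23 for all genes. Upper-quartile scaling gave 0.12 for the 37 genes, 0.48 for lipid hydrolases, -0.018 for membrane proteins, 0.14 for V-ATPase and -0.11 for all genes. The correction for length and GC content gave 5 genes lower, 0.50 for lipid hydrolases, -0.050 for membrane proteins and -0.055 for all genes. Against a 1.2-fold change, glmTreat called 8 of the 37 genes higher and 1713 of all genes lower. With at least 10 CPM in 3 libraries the median of all genes was 0.0020 and that of membrane proteins 0.033. The median of all genes was -0.056 with no filter and -0.0094 with counts divided by 4. Summed with overlapping genes, the 37 had a median of 0.16 and V-ATPase, where only ATP6V1D was summed, one of 0.10. Without ENL library 3 and control library 1 membrane proteins had a median of 0.023 and all genes -0.029. The causes were not tested.

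With each library left out in turn, 9 to 14 of the 37 genes were higher and 2 to 3 lower, and of all genes 2072 to 3156 were higher and 1743 to 2877 lower. Medians then ran from -0.18 to 0.087 for cathepsins and TPP1, 0.025 to 0.12 for membrane proteins and 0.16 to 0.28 for V-ATPase. With the replicate number as a block, 14 of the 37 genes were higher and 2 lower, and CTSB lost its call (adjusted p = 0.0551), as did ATP6AP2 (0.0501), ATP6V1E2 (0.0624) and SERPINB9 (0.108) among the other genes named. Same-numbered libraries correlated by 0.03 to 0.0797 in their deviations from the group means, and 5 of 6 libraries correlated best with their own number, a hint from the data and not from the design. Among the 37 genes, CTSS had the fewest units, and its depth limits what can be said of it.

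Some log2 fold changes that had not passed changed sign. With library totals alone they were -0.046 for CTSK, -0.0022 for GAA, -0.14 for GLA, -0.081 for GUSB, -0.039 for SCARB2, -0.14 for MCOLN1, -0.17 for ATP6AP1, -0.17 for ATP6V0D1 and -0.11 for ATP6V1H. Upper-quartile scaling gave -0.016 for GLA, -0.018 for MCOLN1, -0.049 for ATP6AP1 and -0.045 for ATP6V0D1, and the length and GC correction -0.052 for GLA, -0.081 for MCOLN1 and -0.11 for ATP6V0D1. With single libraries left out, the log2 fold change ran from -0.295 to 0.178 for TPP1 (above 0 without ENL library 2), -0.069 to 0.033 for LAMP1 (above 0 without ENL library 1) and -0.329 to 0.073 for ATP6V0A1 (above 0 without ENL library 1). It ran from -0.165 to 0.041 for CD63 (above 0 without ENL library 3), -0.0052 to 0.070 for ATP6AP1 (below 0 without ENL library 2) and -0.177 to 0.202 for ATP6V0D1 (below 0 without ENL library 1 or control library 3). CD63 had 0.018 without ENL library 3 and control library 1.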
